A study of Mus musculus with 60 samples.

Results

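The genes described here are 10 Wnt-dependent genes of pericentral hepatocytes, the liver cells around the central vein, followed in mouse liver after partial hepatectomy (PHx, an operation that takes out most of the liver mass) or after sham surgery. They were taken by symbol (Glul, Oat, Axin2, Lgr5, Rnf43, Znrf3, Tbx3, Lect2, Slc1a2 and Rhbg), with no use of their values. The time course lists 9 of the 10 members among 14620 genes, without Lgr5, and all 9 passed the filter that left 12957 genes for testing. Rhbg is not listed in the 4 h PHx table or in either 24 h table, each of which lists the 9 others, and the 4 h sham table lists all 10. All mice were male C57BL/6 animals aged 8 weeks, and each group has 3 of them per the labels. The PHx groups were sampled every 4 h from 4 to 32 h after a morning operation (clock hour 8 to 9), and the sham groups at the same times after the same hour. For an operation in the evening (night), PHx and sham livers come from 4 and 24 h. In all, 60 libraries of polyA RNA make 20 groups of 3. The study's design asks how the liver transcriptome moves around the clock after PHx and whether the hour of the operation matters.

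Wnt proteins and R-spondins released by endothelial cells of the central vein stabilise beta-catenin in the hepatocytes next to it, where beta-catenin acts with TCF/LEF factors on target genes. Among these targets are feedback regulators of the pathway itself: Axin2 is a scaffold of the complex that degrades beta-catenin, Rnf43 and Znrf3 are membrane ubiquitin ligases that remove Frizzled receptors from the cell surface, and Lgr5 is a receptor for R-spondins that counter those ligases. Other targets carry out pericentral functions: Tbx3 is a T-box transcription factor, Lect2 a secreted protein, Glul the enzyme glutamine synthetase, Oat ornithine aminotransferase, Slc1a2 a glutamate transporter and Rhbg an ammonium transporter.

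Promoter sequence was available for 6 of the members (Axin2, Rnf43, Lect2, Glul, Oat and Slc1a2, with 7 start sites), from RefSeq on build GRCm38.p6. The 250 bases before each start were searched on both strands for the TCF/LEF-type words CTTTGAA or CTTTGAT, and likewise for CTTTGTA or CTTTGTT. A match occurred in 2 of the 7 promoters, those of Lect2 and Slc1a2, against 14.8% of 32851 mouse promoters searched in the same way. The match of Lect2 lay 32 to 26 bases before the start and that of Slc1a2 207 to 201 bases before it, both as CTTTGAT on the opposite strand, so that the printed sequence holds its reverse complement. These 2 promoters are printed with the matching letters in capitals, and beside them for comparison the promoters of the feedback gene Axin2 and of Glul, in which none of the 4 words occurs. A match is only a match of letters, and its absence says nothing about sites outside this window.
Lect2 promoter (chr13:56548539-56548788, minus strand): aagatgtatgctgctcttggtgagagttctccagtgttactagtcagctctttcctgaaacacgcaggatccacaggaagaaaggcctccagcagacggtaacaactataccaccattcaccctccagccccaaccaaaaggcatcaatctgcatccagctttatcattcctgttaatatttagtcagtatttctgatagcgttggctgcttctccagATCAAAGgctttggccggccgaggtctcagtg
Slc1a2 promoter (chr2:102706188-102706437, plus strand): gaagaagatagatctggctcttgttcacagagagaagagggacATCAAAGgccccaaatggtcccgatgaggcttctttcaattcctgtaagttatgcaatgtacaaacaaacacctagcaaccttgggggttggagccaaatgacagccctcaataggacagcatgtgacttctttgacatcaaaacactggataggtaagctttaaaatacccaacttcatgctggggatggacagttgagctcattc
Axin2 promoter (chr11:108920099-108920348, plus strand): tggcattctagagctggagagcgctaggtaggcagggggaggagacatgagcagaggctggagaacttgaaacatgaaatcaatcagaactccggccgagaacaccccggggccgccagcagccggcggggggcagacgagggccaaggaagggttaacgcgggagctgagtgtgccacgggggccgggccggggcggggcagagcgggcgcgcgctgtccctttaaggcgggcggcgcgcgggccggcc
Glul promoter (chr1:153899679-153899928, plus strand): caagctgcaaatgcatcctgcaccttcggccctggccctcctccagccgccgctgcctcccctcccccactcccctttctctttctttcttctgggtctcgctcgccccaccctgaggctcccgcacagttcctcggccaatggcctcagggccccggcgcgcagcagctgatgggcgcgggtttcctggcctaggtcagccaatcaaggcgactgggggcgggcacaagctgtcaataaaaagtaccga

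Values of the time course are log2(value + 1) of an expression value whose unit is not stated in the file, and the depth behind them is unknown. A difference below is PHx minus sham on this log2 scale with its standard error, from limma fitted over all 48 libraries, and a gene is called where its Benjamini-Hochberg adjusted p is under 0.05. On this scale a change of a gene with low values, such as Znrf3 or Rhbg, comes out too small. Hepatocyte markers were present in every library: of 15 listed, 14 are in the table, none of these is at 0 in any library, and their linear values sum to between 76421 and 132382. In bulk liver RNA, fewer pericentral cells and less RNA per pericentral cell cannot be told apart.

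Libraries that stood apart have to be named before the results. In 4 PHx livers, replicate 2 at 16 h, replicates 1 and 3 at 20 h and replicate 2 at 28 h, the level of Glul was 5.27, 5.64, 5.30 and 4.41, against 7.18 to 8.39 in the other 20 PHx livers and 7.02 to 8.14 in the 24 sham livers. No other liver of the time course came near these 4 values. Results are therefore given with all libraries and, where they differ, without these 4, an alternative chosen after seeing the data. Since the 4 livers were picked by low Glul, the adjusted p of a member without them describes that setting and is no independent support. Sham 4 h replicate 1 also stood apart, with 3422 genes listed at 0. Its profile across 5801 genes was set beside the separate 4 h sham table. Pearson r was 0.8404 to 0.8588 with the night libraries and 0.8395 to 0.8461 with the morning libraries. The highest value was of a night library, but the ranges overlap, so the placement of this replicate stays doubtful and is not settled by them. Sham 4 h replicates 2 and 3, with 907 and 768 genes at 0, had r of 0.8842 to 0.9190 with the same libraries. Replicate 1 was thus less like both the morning and the night libraries than replicates 2 and 3 were. The labels give PHx livers of 4 h another series of library identifiers than the sham livers of that time, so that operation and series cannot be told apart there. At every later time both operations share a series.

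**Figure D1:**
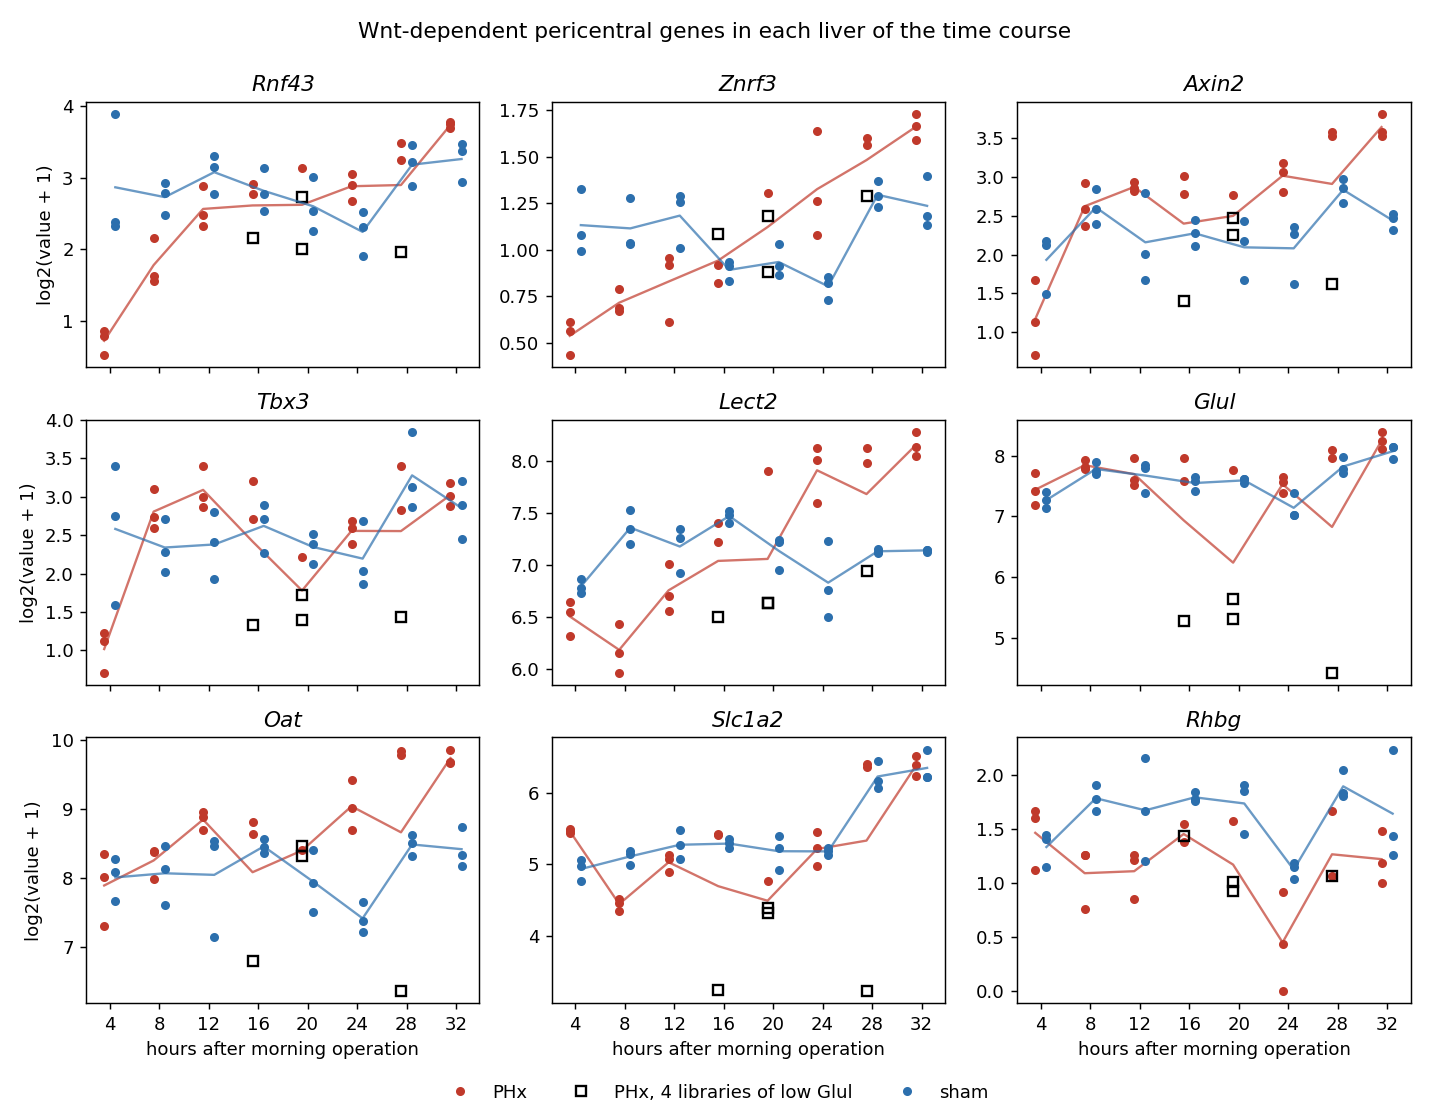
Level of 9 members in each liver, as log2(value + 1) (vertical axes), by hours after a morning operation (horizontal axes), with PHx in red, sham in blue and lines through the group means of all 3 livers; open squares are the 4 PHx livers of low Glul. Rnf43, Znrf3 and Tbx3 of PHx livers lie below sham at 4 h, Lect2 lies below at 8 h and above at 24 and 32 h, and the 4 squares lie lowest for Glul.

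The members called at 4 and 8 h were all lower after PHx, and those called at 24 and 32 h all higher, while most members were not called at any one time. At 4 h, 3 of 9 were called lower and none higher, beside 46.9% of all tested genes called at that time, 37.6% lower and 9.32% higher. At 8 h, 4 of 9 were called lower and none higher, beside 24.7% of all genes, 18.7% lower and 6.04% higher. At 24 h, 3 of 9 were called higher and none lower, beside 12.3% of all genes, 9.19% higher and 3.11% lower. At 32 h again 3 of 9 were higher and none lower, beside 15.4% of all genes, 11.8% higher and 3.6% lower. At 12, 16, 20 and 28 h limma called no member, and 2, 0, 2 and 2 members had an unadjusted p under 0.05. Of all genes, 16.2% were called at 12 h (7.57% higher, 8.63% lower), 13.7% at 16 h (7.31% higher, 6.35% lower), 18.4% at 20 h (12.5% higher, 5.87% lower) and 20.5% at 28 h (14.9% higher, 5.59% lower). Over the 72 pairs of member and time, 6 were called higher and 7 lower, against 9.83% and 11.2% of the pairs over all genes, so that the number of calls is near the background. The median difference of the 9 members was -0.29 at 4 h and -0.40 at 8 h, against -0.32 and -0.15 over all genes. It was 0.52 at 24 h and 0.43 at 32 h, against 0.10 and 0.14 over all genes. The deposited scaling moves the median of all genes, so each change is to be read relative to it. Groups without overlap were common over all genes. For 37% of genes every PHx value of 4 h lay below every sham value, and for 9.09% above. The 8 h groups gave 32.4% below and 12.8% above, and those of 12 h 19.9% and 18.3%. In the 24 h groups 20.1% of genes lay fully above sham and 8.89% fully below, and in those of 32 h 28.6% and 10.3%. A member's lack of overlap in the time course is to be read beside these shares. For the 24 h counts and for the 4 h sham values of morning and night, such shares were not taken.

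Rnf43, which had the largest fall among the members at 4 h, measured 0.86, 0.53 and 0.79 in PHx livers at that time, against 3.89, 2.33 and 2.38 in sham livers. The groups did not overlap, and the highest sham value came from the library of doubtful placement. The difference was -2.14 ± 0.33 (adjusted p = 2.3e-06), and -1.63 without that library, where it was still called. At 8 h Rnf43 measured 2.16, 1.57 and 1.62 after PHx, against 2.92, 2.78 and 2.48 after sham operation, again with no overlap (-0.95 ± 0.33, adjusted p = 0.032). This second fall lost its call with TMM scaling (-0.79, adjusted p = 0.073) or with each library centred on its median (-0.75, adjusted p = 0.093), and without either of PHx replicates 2 and 3 or sham replicates 1 and 2 of that time. At 24 h the order of the groups had turned, with 2.68, 2.90 and 3.05 after PHx and 2.52, 2.31 and 1.90 after sham operation, but the difference of 0.64 ± 0.33 was not called (adjusted p = 0.22). At 32 h all PHx livers (3.69, 3.77 and 3.74) again lay above all sham livers (3.46, 3.38 and 2.94), without a call (0.48 ± 0.33, adjusted p = 0.37).

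Znrf3, the partner ligase of Rnf43, followed the same order of signs at lower levels. At 4 h it measured 0.61, 0.43 and 0.57 after PHx, against 1.33, 1.08 and 0.99 after sham operation, a difference of -0.60 ± 0.14 (adjusted p = 0.00048). At 8 h the values were 0.79, 0.69 and 0.67 after PHx and 1.04, 1.03 and 1.28 after sham operation (-0.40 ± 0.14, adjusted p = 0.027). Groups did not overlap at either time. At 24 h Znrf3 stood at 1.64, 1.08 and 1.26 in PHx livers, against 0.86, 0.73 and 0.82 in sham livers, and it was called higher (0.52 ± 0.14, adjusted p = 0.0084). At 32 h it stood at 1.66, 1.59 and 1.73 after PHx, against 1.13, 1.18 and 1.40 after sham operation (0.43 ± 0.14, adjusted p = 0.029). In PHx livers the group mean of Znrf3 went up at each step of the series, 0.54, 0.72, 0.83, 0.94, 1.12, 1.33, 1.48 and 1.66 from 4 to 32 h. The size of each Znrf3 difference depends on the scaling: with each library centred on its median, the 4 h difference was -0.13 (adjusted p = 0.44), and those of 8, 24 and 32 h were -0.20, 0.37 and 0.22, none of them called. With TMM scaling the calls at 4 and 24 h held, and those at 8 and 32 h did not (-0.31, adjusted p = 0.081, and 0.30, adjusted p = 0.13). The call at 4 h held when any library was left out, and that at 24 h was lost without PHx replicate 1 (0.37). The call at 8 h was lost without PHx replicate 2 or 3 or sham replicate 3, and that at 32 h without PHx replicate 1 or 3 or sham replicate 1 or 2.

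Axin2, the target most often read as a measure of Wnt activity, had its lowest group mean at 4 h after PHx (1.17 ± 0.49, SD, n = 3) and its highest at 32 h after PHx (3.64 ± 0.15, SD, n = 3), with all 8 sham means between 1.93 and 2.83. At 4 h it measured 0.70, 1.68 and 1.13 after PHx, against 1.50, 2.17 and 2.13 after sham operation. These groups overlapped, and the difference of -0.76 ± 0.36 was not called (adjusted p = 0.08). At 32 h the PHx livers (3.58, 3.53 and 3.81) lay clearly above the sham livers (2.48, 2.53 and 2.32), and Axin2 was called higher (1.20 ± 0.36, adjusted p = 0.02). That call was lost with TMM scaling (1.02, adjusted p = 0.055), with centred libraries (0.99, adjusted p = 0.06) and without PHx replicate 1 or 3 or sham replicate 3 of 32 h. At 24 h the PHx values (2.81, 3.06 and 3.18) also lay above the sham values (1.62, 2.26 and 2.36), with a difference of 0.93 ± 0.36 (adjusted p = 0.085). Without the 4 livers of low Glul, the spread in the fit was smaller, and Axin2 was called lower at 4 h (adjusted p = 0.0093) and higher at 12 h (0.71, adjusted p = 0.033), 24 h (adjusted p = 0.0063) and 32 h (adjusted p = 0.0005).

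Tbx3, the transcription factor of the set, was called at 4 h alone. It measured 0.70, 1.23 and 1.12 after PHx, against 3.40, 2.75 and 1.58 after sham operation, a difference of -1.56 ± 0.41 (adjusted p = 0.0018). The groups did not overlap, although the sham livers spread widely, and the fall was -1.15 without the sham library of doubtful placement and still called. At 8 h the PHx livers had reached 3.09, 2.59 and 2.74, against 2.70, 2.03 and 2.29 in sham livers (0.47 ± 0.41, adjusted p = 0.46). At 12 h they stood at 2.87, 3.00 and 3.40, above all sham livers (2.80, 2.41 and 1.93), with no call (0.71 ± 0.41, adjusted p = 0.26).

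Because the 4 h sham libraries belong to another identifier series, the 4 h PHx livers were also set beside the 24 h sham livers, which share their series. Rnf43 lay at 0.53 to 0.86 in the PHx livers of 4 h and at 1.90 to 2.52 in the 24 h sham livers. For Tbx3 the ranges were 0.70 to 1.23 after PHx and 1.86 to 2.68 after sham operation, and for Znrf3 0.43 to 0.61 and 0.73 to 0.86. The 3 genes lay lower in the 4 h PHx livers than in these sham livers, which were taken at a different time of day. They had been picked by their low values in the same 4 h PHx livers, and the share of all genes lower in this setting was not taken. The part of the identifier series in the falls at 4 h was not tested.

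**Figure D2:**
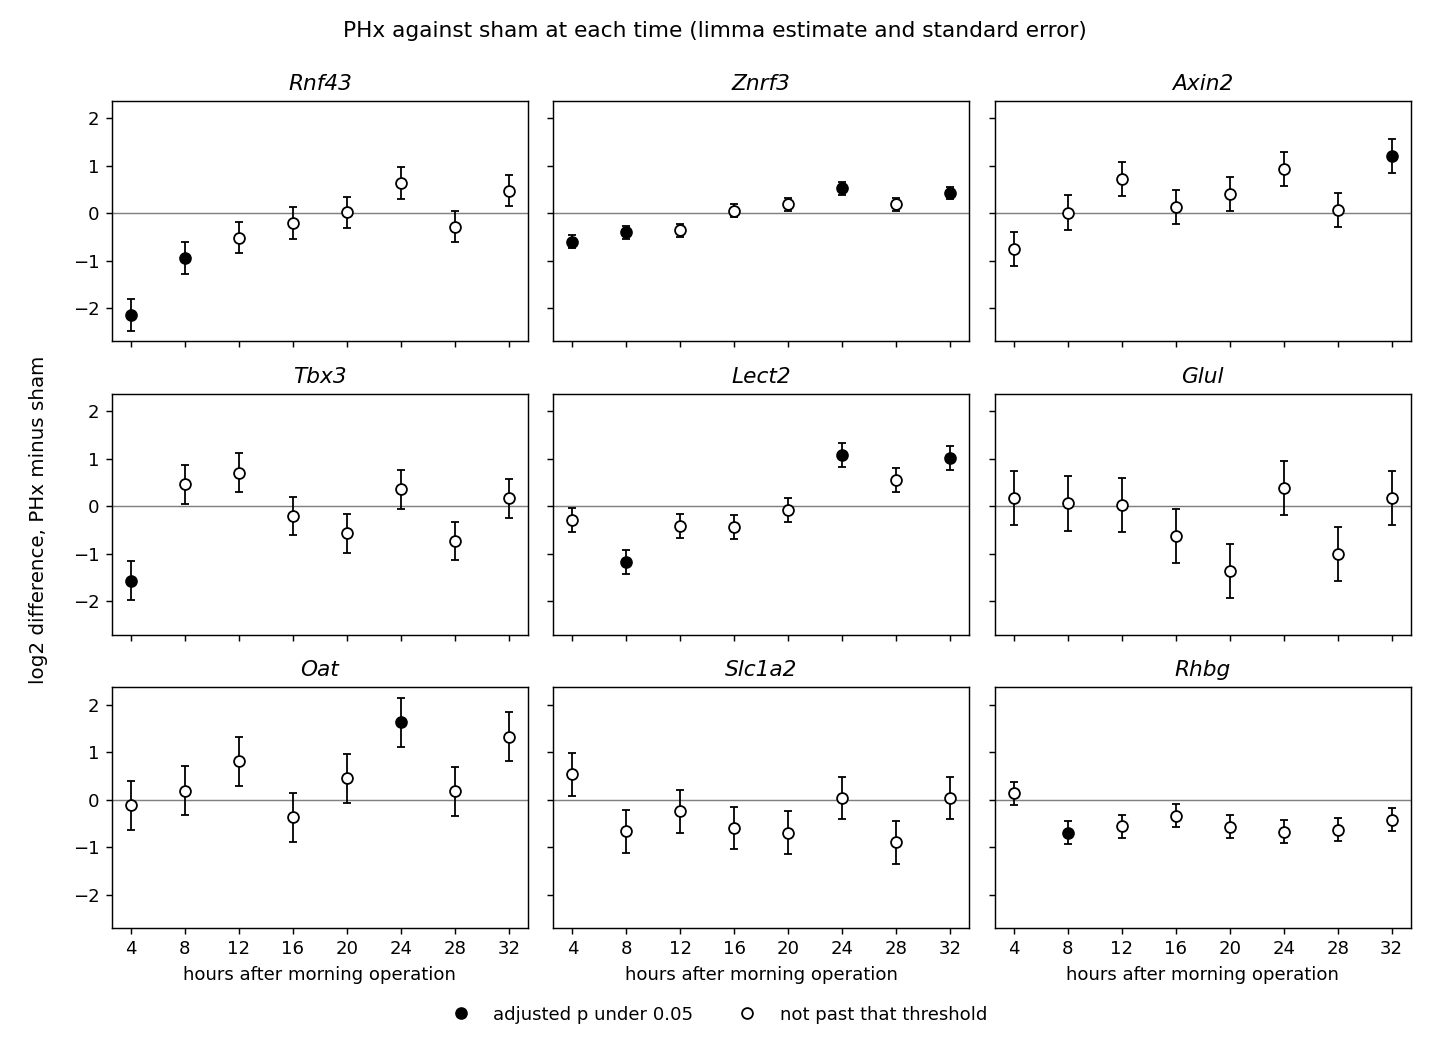
Difference between PHx and sham for 9 members on the log2 scale (vertical axis, shared by all panels) by hours after a morning operation; points are limma estimates, bars their standard errors, filled points those with an adjusted p under 0.05. Rnf43, Znrf3 and Lect2 run from negative differences at 4 and 8 h to positive ones at 24 and 32 h, and Rhbg is negative from 8 h on.

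Lect2, a protein secreted by hepatocytes, showed the fall at 8 h and the rise at 24 and 32 h that kept their calls under every alternative scaling, pseudocount and filter tried. At 8 h it measured 6.16, 6.44 and 5.96 after PHx, against 7.54, 7.34 and 7.21 after sham operation (-1.18 ± 0.25, adjusted p = 0.00059). At 24 h it measured 8.13, 7.60 and 8.01 after PHx, against 6.76, 6.51 and 7.23 after sham operation (1.08 ± 0.25, adjusted p = 0.0037). At 32 h it measured 8.29, 8.05 and 8.14 after PHx, against 7.15, 7.13 and 7.15 after sham operation (1.01 ± 0.25, adjusted p = 0.0057). In none of the 3 comparisons did the groups overlap. At 20 h PHx replicate 2 already stood at 7.90, while replicates 1 and 3, which are among the livers of low Glul, stood at 6.64 each, and the sham livers at 7.23, 6.95 and 7.24. The difference at 20 h was accordingly -0.08 ± 0.25 with all libraries, and 0.76 between the 1 PHx liver left and the sham livers without those 2, a value for which no spread among PHx livers of that time exists. At 28 h the difference was 0.55 ± 0.25 (adjusted p = 0.12), and 0.92 without PHx replicate 2 alone, when it was called (adjusted p = 0.0093).

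Glul, the classical marker of the hepatocytes that line the central vein, was not called at any of the 8 times. Outside the 4 livers, which were picked by low Glul, it lay at 7.18 to 8.39 in PHx livers, beside 7.02 to 8.14 in sham livers. At 8 h Glul measured 7.93, 7.78 and 7.81 after PHx and 7.74, 7.89 and 7.70 after sham operation (0.06 ± 0.57, adjusted p = 0.97). At 32 h it measured 8.10, 8.23 and 8.39 after PHx and 7.94, 8.14 and 8.14 after sham operation (0.17 ± 0.57, adjusted p = 0.89). The largest differences, -1.36 ± 0.57 at 20 h (adjusted p = 0.095) and -0.996 ± 0.57 at 28 h (adjusted p = 0.23), came from groups that hold the low livers. They rested on which livers were kept: without PHx 20 h replicate 2, the liver of higher Glul, the difference at 20 h was -2.12 and called (adjusted p = 0.0086), and without PHx 28 h replicate 3 that at 28 h was -1.63 and called (adjusted p = 0.0498). Leaving out PHx 28 h replicate 2 also brought the difference at 20 h past the threshold, with its size unchanged at -1.36. At 20 h the PHx livers measured 5.64, 7.76 and 5.30, against 7.62, 7.55 and 7.61 in sham livers. Without the low livers the differences were 0.22 at 16 h, 0.17 at 20 h and 0.21 at 28 h, and that at 24 h, where no liver was left out, stayed 0.39. As a mean of the 8 times Glul differed by -0.27 ± 0.20 with all libraries (adjusted p = 0.27) and by 0.18 without those 4, a change of sign that is given with no test, since the livers left out were those with the lowest Glul.

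Oat, which links ornithine to glutamate, was called higher at 24 h. It measured 9.42, 8.69 and 9.01 after PHx, against 7.38, 7.21 and 7.66 after sham operation (1.63 ± 0.51, adjusted p = 0.032), with no overlap. The estimate was 1.47 with TMM scaling (adjusted p = 0.057) and 1.47 with centred libraries (adjusted p = 0.058), and leaving out PHx replicate 1 or 3 or any sham library of 24 h also lost the call. At 32 h Oat measured 9.67, 9.68 and 9.86 after PHx, against 8.33, 8.18 and 8.74 after sham operation (1.32 ± 0.51, adjusted p = 0.077). At 28 h PHx replicates 1 and 3 stood at 9.79 and 9.84 and replicate 2, a liver of low Glul, at 6.36, against 8.51, 8.63 and 8.32 in sham livers. Without the 4 livers Oat was called higher at 12 h (0.80, adjusted p = 0.038), 24 h (adjusted p = 7.1e-05), 28 h (1.33, adjusted p = 0.0022) and 32 h (adjusted p = 0.0008).

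Slc1a2, the glutamate transporter, was not called against sham at any time with all libraries. At 4 h the PHx livers (5.46, 5.43 and 5.49) lay above the sham livers (5.06, 4.97 and 4.76), and at 8 h they lay below (4.46, 4.35 and 4.52, against 5.15, 4.99 and 5.19). These differences, 0.53 ± 0.45 and -0.67 ± 0.45, have standard errors that carry the spread of the low livers, and both were called without the 4 livers (adjusted p = 0.00081 at 4 h and 0.00012 at 8 h). Among sham livers Slc1a2 stood at 6.07 to 6.60 at 28 and 32 h and at 4.76 to 5.47 at all earlier times. The libraries of 28 and 32 h form an identifier series of their own, so time and series cannot be told apart for this step, which PHx livers other than the low liver share (6.24 to 6.51).

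Rhbg, the ammonium transporter, was the member most evenly lower after PHx. Its PHx mean was below its sham mean at 7 of 8 times, and the mean difference over the 8 times was -0.47 ± 0.08 (adjusted p = 1.4e-05), and -0.41 ± 0.09 without the 4 livers. It was called singly at 8 h, with 0.76, 1.26 and 1.26 after PHx, against 1.67, 1.78 and 1.91 after sham operation (-0.69 ± 0.24, adjusted p = 0.029). That call was lost with TMM scaling (-0.57, adjusted p = 0.077), with centred libraries (-0.50, adjusted p = 0.13) and with a pseudocount of 0.1 (-1.08, adjusted p = 0.093), and without PHx replicate 1 or sham replicate 2 or 3 of that time. At 24 h Rhbg measured 0.00, 0.92 and 0.43 after PHx, against 1.15, 1.04 and 1.18 after sham operation, with no overlap and no call (-0.67 ± 0.24, adjusted p = 0.058).

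Averaged over the 8 times with equal weight, limma called Oat (0.51 ± 0.18, adjusted p = 0.018) and Axin2 (0.34 ± 0.13, adjusted p = 0.024) higher after PHx, and Rhbg and Rnf43 (-0.37 ± 0.12, adjusted p = 0.0079) lower. Over all genes 27.4% were called higher and 25.5% lower in this comparison. Rnf43 lost its call without the 4 livers of low Glul (-0.22 ± 0.11, adjusted p = 0.084), and Lect2 gained it (0.22 ± 0.06, adjusted p = 0.0023). Within PHx livers all 9 members changed across time, beside 71.5% of all genes. Glul and Oat had the largest adjusted p among them (0.044 and 0.035), and most single libraries, when left out, ended the call of Glul. Within sham livers 2 of 9 changed across time, Znrf3 (adjusted p = 0.018) and Slc1a2 (adjusted p = 0.039), beside 50.7% of all genes. Without the 4 PHx livers, whose spread enters the shared error, 7 of 9 did, beside 7417 of 12859 genes. Times also differ in identifier series, so a change across time within an operation cannot be told apart from a change between series.

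The test of whether the difference between PHx and sham itself varied with time called 5 of 9 members, beside 43.5% of all genes. These were Lect2 (adjusted p = 2.1e-05), Znrf3 (adjusted p = 3.5e-05), Rnf43 (adjusted p = 0.00025), Tbx3 (adjusted p = 0.019) and Axin2 (adjusted p = 0.038). For Axin2 the call was lost with TMM scaling (adjusted p = 0.18) and with centred libraries (adjusted p = 0.25). For Tbx3 it was lost without sham replicate 1 of 4 h (adjusted p = 0.059). Glul, Oat, Slc1a2 and Rhbg were not called (adjusted p = 0.40, 0.18, 0.44 and 0.38). Without the 4 livers of low Glul, Oat (adjusted p = 0.0028) and Slc1a2 (adjusted p = 0.00011) were called as well, and Glul was not (adjusted p = 0.77).

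**Figure D3:**
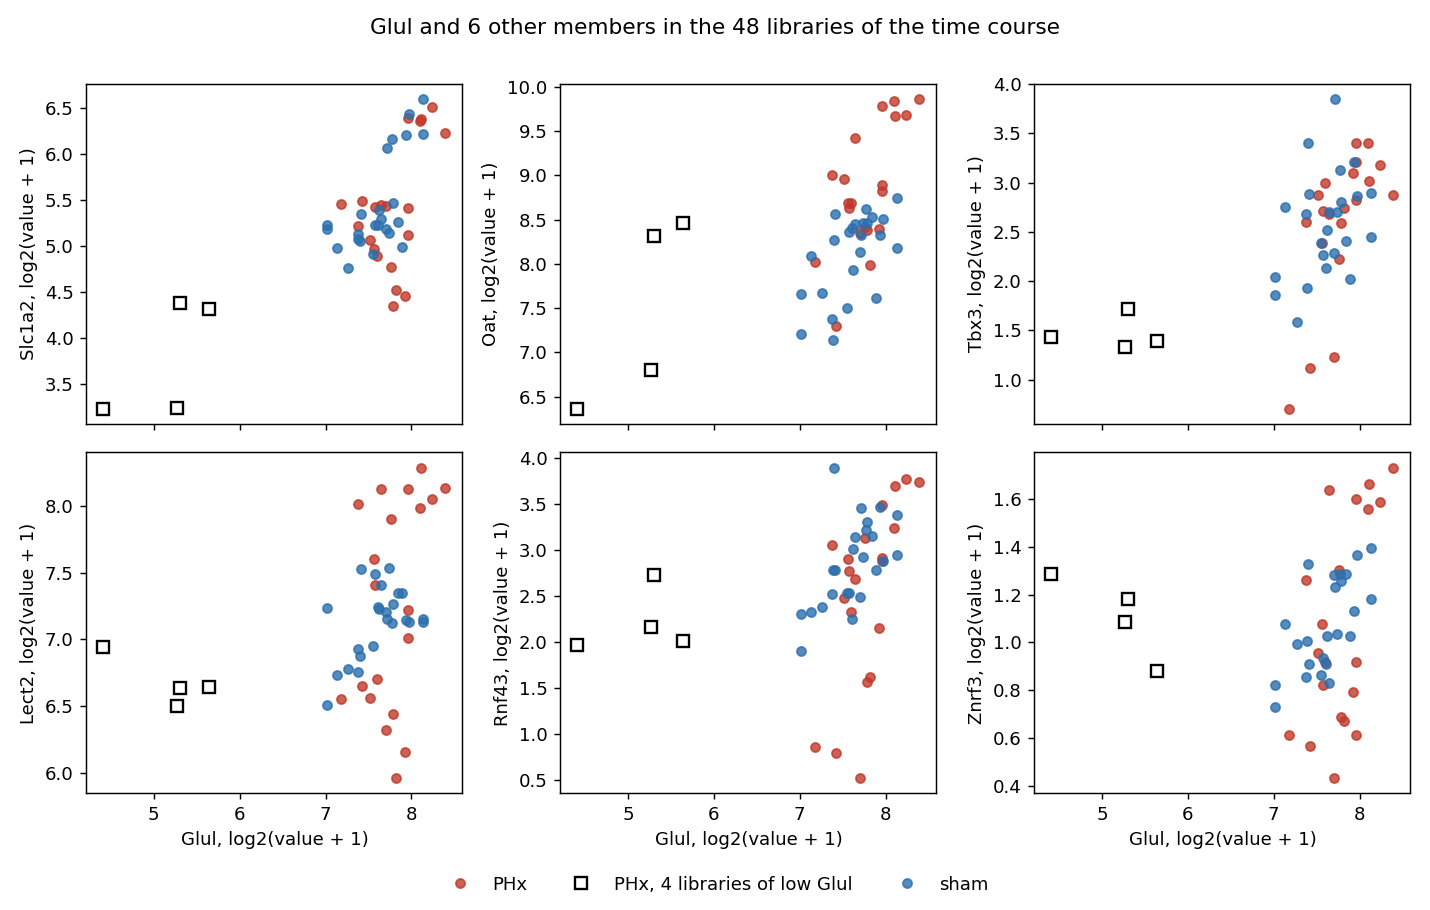
Level of 6 other members (vertical axes) against the level of Glul (horizontal axes) in the 48 libraries of the time course, both as log2(value + 1), with PHx in red, sham in blue and the 4 PHx livers of low Glul as open squares. The squares lie lowest or nearly so for Slc1a2, lowest for Oat in 2 livers, below all but the 4 h PHx livers and 1 sham liver for Tbx3, and within the range of the other livers for Lect2, Rnf43 and Znrf3.

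The 4 livers of low Glul were described member by member, with no test, since they were picked by their values. In PHx 16 h replicate 2, 20 h replicates 1 and 3 and 28 h replicate 2, Slc1a2 stood at 3.24, 4.31, 4.38 and 3.22, against 4.35 to 6.51 in the other PHx livers. Tbx3 lay at 1.33 to 1.72, against 0.70 to 3.40 in the other PHx livers, of which only those of 4 h lay lower. Oat was at 6.80 and 6.36 in the livers of 16 and 28 h, below every other PHx and sham liver, but at 8.47 and 8.32 in both livers of 20 h, inside the range of the others. The livers of 16 and 28 h were thus low in both Slc1a2 and Oat. In those of 20 h Slc1a2 was below the remaining liver of that time (4.77) but near the PHx livers of 8 h (4.35 to 4.52). Tbx3 in them, at 1.40 and 1.72, was also below that remaining liver (2.22).

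Some of the other members were low beside PHx livers of the same time. Axin2 stood at 1.40 and 1.62 in the livers of 16 and 28 h, against 3.01 and 2.78 in the other livers of 16 h and 3.53 and 3.58 in those of 28 h, and at 2.25 and 2.48 in the livers of 20 h, against 2.76 in the remaining liver of that time. Lect2 stood at 6.50 in the liver of 16 h, against 7.22 and 7.41 in the others of that time, at 6.64 in both livers of 20 h, against 7.90, and at 6.95 in that of 28 h, against 8.13 and 7.98. Each was below its companions of the same time. Rnf43 stood at 2.16 in the liver of 16 h, against 2.91 and 2.77, at 2.01 and 2.72 in those of 20 h, against 3.13, and at 1.96 in that of 28 h, against 3.48 and 3.24. Over all times these values lay inside the range of the other PHx livers, 5.96 to 8.29 for Lect2 and 0.53 to 3.77 for Rnf43. Znrf3 lay at 0.88 to 1.29, within 0.43 to 1.73 in the other PHx livers, and Rhbg at 0.93 to 1.44, within 0.00 to 1.67.

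The same 4 livers differed from the rest in genes outside the set, which were picked for this after their values were seen. The P450 gene Cyp2e1, also pericentral, lay at 9.68 to 10.24, against 10.56 to 11.71 in the other PHx livers. Cyp1a2, another pericentral P450 gene, followed it in part. It stood at 8.27 in the liver of 16 h, level with the highest of the other PHx livers. In those of 20 h it stood at 6.48 and 5.73, below the remaining liver of that time (7.73). In that of 28 h Cyp1a2 stood at 4.98, against 6.30 to 8.27 in the other PHx livers of all times. The steroid dehydrogenase gene Hsd3b5 lay at 0.58 to 0.78, against 1.24 to 7.90, and the proliferation marker Mki67 at 0.11 to 0.41, against 0.20 to 4.34. The sulfotransferase gene Sult1e1 lay at 5.80 to 7.15, against 0.32 to 3.17, and the bile acid transporter subunit gene Slc51b at 7.92 to 9.14, against 2.38 to 7.29. The central vein ligand genes did not stand apart in them: Rspo3 measured 3.29 to 3.55, against 2.82 to 4.43, and Wnt2 1.46 to 1.90, against 0.87 to 2.45. Over all times, summed endothelial markers were 183 to 222 in the 4 livers and 169 to 376 in the other PHx livers. Each of the 4 nevertheless had a lower sum than the PHx livers of its own time outside the 4. The liver of 16 h had 183, with companions up to 223. That of 28 h had 222, with companions up to 364. The remaining liver of 20 h had 260, and the lowest of that time 190. Summed hepatocyte markers were 87654 to 112045 in the 4 livers and 76421 to 119282 in the other PHx livers. The part of these other genes in the low Glul was not tested.

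At 24 h, counts were deposited for PHx and sham livers of morning and night operations, with 24611621 to 30192818 counts per library, and they include Lgr5. The 24 h morning livers are those of the time course, so their comparison is no independent repeat. After the morning operation edgeR called 4 of 9 members higher and none lower, beside 11.8% of all genes, 6.69% higher and 5.11% lower. After the night operation it called 2 of 9 higher and none lower, beside 23.2% of all genes, 11.9% higher and 11.3% lower. The median log2 fold change of the 9 members was 0.49 after the morning and 0.05 after the night operation, against 0.00 and 0.01 over all genes. For these counts the share of all genes without overlap between groups was not taken.

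Oat gave the largest fold change at both hours. After the morning operation it had 36640, 23328 and 26118 counts in PHx livers, against 9203, 7707 and 11189 in sham livers (log2 fold change 1.53 ± 0.32, adjusted p = 0.0057). After the night operation it had 40882, 54914 and 20696 counts in PHx livers, against 12728, 8335 and 9146 in sham livers (1.59 ± 0.32, adjusted p = 0.0023). All PHx livers lay above all sham livers at both hours. Lect2 had 4813, 3599 and 4293 counts after morning PHx, against 1932, 1630 and 2784 after morning sham operation (0.92 ± 0.24, adjusted p = 0.022). After night PHx it had 3747, 5006 and 4600 counts, against 2085, 1483 and 2319 (0.77 ± 0.24, adjusted p = 0.032), again without overlap. Oat and Lect2 were thus higher after PHx at both hours of operation; leaving out night PHx replicate 2 or 3 or night sham replicate 1 or 2 lost the night call of Lect2.

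Of the feedback genes, Axin2 had 410, 385 and 418 counts after morning PHx, against 179, 172 and 200 after morning sham operation (1.05 ± 0.29, adjusted p = 0.027). After night PHx it had 286, 368 and 524 counts, against 301, 152 and 98, and these groups overlapped (0.75 ± 0.29, adjusted p = 0.073). Rnf43 had 573, 654 and 770 counts after morning PHx, against 511, 369 and 306 after morning sham operation (0.67 ± 0.20, adjusted p = 0.039). After the night operation there was no such difference, with 584, 620 and 865 counts after PHx and 626, 550 and 416 after sham operation (0.00 ± 0.20, adjusted p = 0.99). The morning calls of Axin2, Rnf43 and Lect2 were each lost when any of several single libraries was left out, and that of Oat was not.

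Lgr5, the R-spondin receptor, was low in all 12 livers. It had 164, 186 and 92 counts after morning PHx, against 94, 135 and 79 after morning sham operation (0.39 ± 0.31, adjusted p = 0.48). After night PHx it had 113, 106 and 132 counts, against 50, 68 and 42 after night sham operation. The night groups did not overlap, but the difference was not called (0.75 ± 0.32, adjusted p = 0.11).

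Glul after the night operation spread widely among PHx livers, with 11213, 19969 and 4487 counts, against 17895, 13460 and 11451 in sham livers (-0.60 ± 0.37, adjusted p = 0.27). Replicate 3 was the lowest liver of the 24 h tables for Glul, and also for Slc1a2 among night livers, with 1902 counts against 3316 and 4866 in the other PHx livers. That liver had 2580 counts of Sult1e1, against 843 and 24 in the other night PHx livers and 4 to 86 in morning PHx livers, and 393 counts of Hsd3b5, against 2226 and 6047 in the other night livers. Without it Glul differed from night sham livers by -0.19, and without replicate 2 in its place by -1.28, when Glul was called lower. After the morning operation Glul had 16245, 15928 and 12867 counts in PHx livers, against 13639, 10509 and 10637 in sham livers (0.28 ± 0.37, adjusted p = 0.70).

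**Figure D4:**
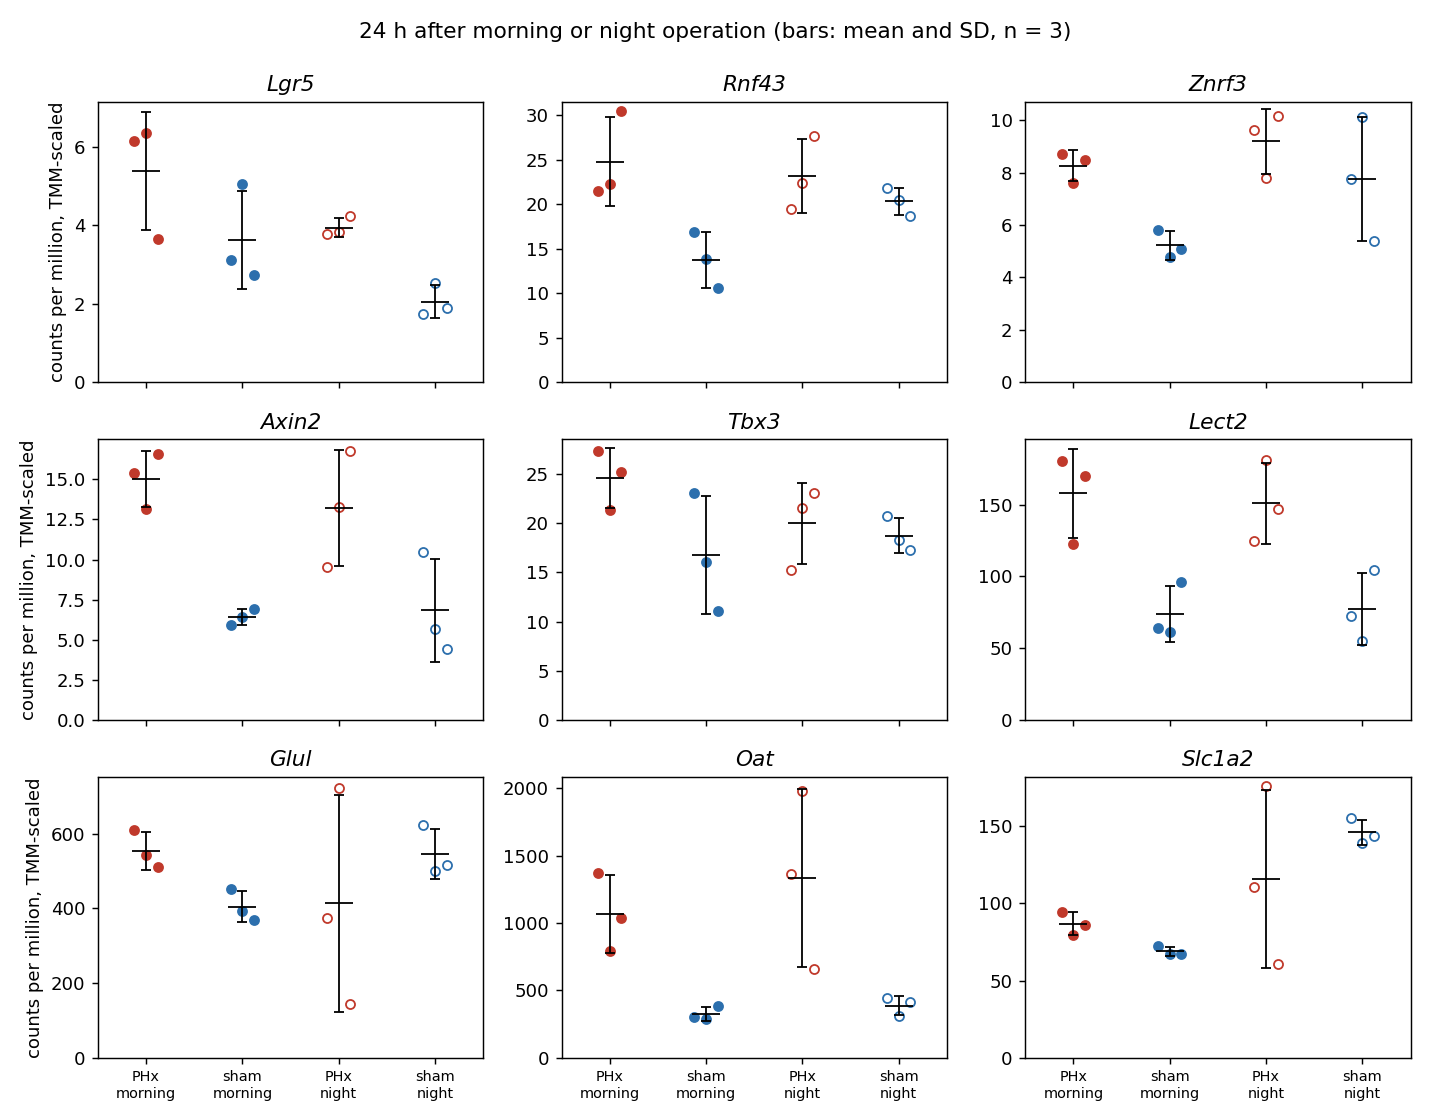
CPM after TMM scaling (vertical axes, from 0) of the 9 members listed at 24 h, in PHx (red) and sham (blue) livers after morning (filled) or night (open) operation; bars are the mean and SD of 3 livers. Oat and Lect2 are higher after PHx at both hours, Slc1a2 is lower in morning than in night sham livers, and Glul spreads most among night PHx livers.

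Whether the response to PHx at 24 h depended on the hour of the operation was tested directly, and edgeR called none of the 9 members, beside 0.489% of all genes (0.207% higher, 0.282% lower). DESeq2 called none either, and 1 member had an unadjusted p under 0.05 with each tool: Rnf43, with a difference of the log2 fold changes, morning minus night, of 0.68 ± 0.28 (adjusted p = 0.40). The calls that Axin2 and Rnf43 had after the morning operation alone are therefore not shown to differ between the hours. For Glul the difference of the responses was 0.88 ± 0.52 (adjusted p = 0.62), and for Oat -0.06 ± 0.44 (adjusted p = 0.99).

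Morning and night livers were also compared within each operation. At an equal time after operation they were taken at different clock hours. In these comparisons and in the test of the responses, the hour of operation and the hour of sampling cannot be told apart. In sham livers at 24 h, 1 of 9 members was called, Slc1a2, beside 5.35% of all genes, 2.75% higher and 2.61% lower. It had 2183, 1785 and 1946 counts in morning livers, against 4461, 3749 and 3188 in night livers, with no overlap and a log2 fold change of -1.09 ± 0.13 (adjusted p = 0.00088). The fold change stayed between -1.12 and -1.03, and was called, when any library of the comparison was left out. In the time course, sham Slc1a2 measured 5.08 to 5.47 at 12 h, in the evening, and 5.13 to 5.23 at 24 h, in the morning. The part of the hour of sampling was not tested. Rnf43 (-0.56 ± 0.20, adjusted p = 0.14) and Glul (-0.43 ± 0.16, adjusted p = 0.15) had lower morning than night values, and Lgr5 higher ones (0.82 ± 0.36, adjusted p = 0.26), all without a call. In PHx livers at 24 h edgeR and DESeq2 called none of the 9, and none had an unadjusted p under 0.05; 0.332% of all genes were called by edgeR, 0.253% higher and 0.079% lower. Slc1a2 there had 2518, 2336 and 2171 counts in morning livers, against 3316, 4866 and 1902 in night livers (-0.42 ± 0.30, adjusted p = 0.72).

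At 4 h after PHx, 4 members passed the filter on low values (Glul, Oat, Lect2 and Slc1a2), and limma called none of them between morning and night, beside 0.939% of all genes (0.397% higher, 0.541% lower). Slc1a2 came nearest, with 5.25, 6.95 and 6.25 in morning livers, against 7.73, 10.4 and 9.67 in night livers on the scaled values (-0.52 ± 0.15, adjusted p = 0.17), and Lect2 also had an unadjusted p under 0.05. On whole reads recovered from that table (24889376 to 30626647 per library), edgeR could test all 9 members listed and called none, beside 0.751% of all genes. Lgr5 had 16, 24 and 31 reads in morning livers, against 14, 15 and 6 in night livers (1.24 ± 0.52, adjusted p = 0.38). Rnf43 had 67, 51 and 68 reads in morning livers, against 64, 53 and 48 in night livers (0.41 ± 0.32, adjusted p = 0.69).

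At 4 h after sham operation limma called none of the 9 members tested, and 0% of 11391 genes, of which 667 had an unadjusted p under 0.05. Rnf43 measured 4.31, 3.76 and 4.55 TPM in morning livers, against 7.31, 7.52 and 7.61 TPM in night livers, with no overlap (-0.71 ± 0.15, unadjusted p = 0.0017, adjusted p = 0.84). The share of all genes without overlap in this comparison was not taken. Tbx3 measured 3.52, 7.56 and 6.48 TPM in morning livers, against 10.3, 8.81 and 12.6 TPM in night livers (-0.79 ± 0.26, adjusted p = 0.84). Of the 9 members listed in the sham tables of both times, 7 had lower morning than night means in both, all but Axin2 and Lgr5, and a call was made for Slc1a2 at 24 h alone. The share of all genes with lower morning means at both times was not taken. Some of these differences were smaller than their standard error, as for Lect2 (-0.09 ± 0.14 at 4 h and -0.07 ± 0.24 at 24 h). TPM values are per length, so the members can be ranked in this table: in morning sham livers Oat averaged 302 ± 48.6, Glul 252 ± 30.3, Lect2 121 ± 15.7 and Slc1a2 25.2 ± 0.706 TPM (SD, n = 3). Tbx3 averaged 5.85 ± 2.09, Rnf43 4.21 ± 0.404, Axin2 4.16 ± 1.57, Rhbg 2.73 ± 0.301, Znrf3 1.45 ± 0.0939 and Lgr5 0.611 ± 0.290 TPM. Oat and Glul, and Tbx3, Rnf43 and Axin2, did not differ from their neighbours in this order beyond the spread.

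The rest of the Wnt pathway was read in the time course from lists. Of 24 genes for Wnt ligands, R-spondins and their secretion, 6 were tested, and none was called lower after 4 h. Wnt9b, a ligand of central vein endothelium, was called higher at 7 of 8 times, from 0.38 ± 0.12 at 24 h to 0.69 ± 0.12 at 28 h. It lay near the floor, at 0.00 to 0.55 in sham livers and 0.33 to 1.09 in PHx livers. Wnt9b thus passed the filter on low values through PHx livers alone, so its calls are no support for a rise. Rspo3, the R-spondin of the central vein, was called higher at 12 h (1.19 ± 0.26, adjusted p = 0.0013) and 16 h (1.33 ± 0.26, adjusted p = 0.00038), at which no member was called. Of 8 receptor genes tested, 7 were called lower and none higher at 4 h, with a median of -0.62. Lgr4, the R-spondin receptor related to Lgr5, was called lower at 7 times, by -1.07 ± 0.16 at 4 h and -0.56 ± 0.16 at 24 h. The Frizzled receptor gene Fzd4 was called lower from 4 to 16 h (-1.18 ± 0.17 at 4 h), and the co-receptor gene Lrp5 was lower at 4 h (-0.52 ± 0.14) and higher at 16, 20, 28 and 32 h (0.82 ± 0.14 at 32 h).

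Among secreted and feedback inhibitors, with 7 genes tested, 4 were called lower at 4 h and none higher. Notum, a secreted enzyme that inactivates Wnt proteins and is itself a Wnt target, was called lower at 4, 8 and 12 h, most at 8 h (-2.09 ± 0.34), and differed by 0.80 ± 0.34 at 24 h without a call (adjusted p = 0.12). Of 26 intracellular components, 15 were called lower at 4 h and none higher, with Bcl9l, a cofactor of beta-catenin, at -2.19 ± 0.15. Tcf7, a TCF factor that is also a Wnt target, was lower at 4 h (-1.01 ± 0.25) and higher at 24, 28 and 32 h (1.24 ± 0.25 at 32 h), the order of signs seen for Rnf43, Znrf3 and Lect2. Of 12 other Wnt target genes tested, 3 were called lower at 4 h and 2 higher at 24 h. The cyclin gene Ccnd1, which many pathways induce in regenerating liver, was called higher from 8 h on, by 2.83 ± 0.29 at 24 h. At 4 h these counts stand beside 37.6% of all genes called lower.

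Other pericentral genes of hepatocytes, 34 tested, did not move with a common sign. At 8 h 13 were called lower and 1 higher, at 20 h 10 and 3, and at 28 h 12 and 3, whereas at 24 h 5 were higher and 3 lower and at 32 h 7 higher and 3 lower. Of all genes, 18.7% were lower and 6.04% higher at 8 h, 5.87% and 12.5% at 20 h, 5.59% and 14.9% at 28 h, 3.11% and 9.19% at 24 h, and 3.6% and 11.8% at 32 h. The median of the list was -0.60 at 8 h, -0.56 at 20 h and 0.30 at 32 h, against -0.15, 0.13 and 0.14 over all genes. Cyp27a1, a bile acid synthesis enzyme, was higher at 4 h (0.77 ± 0.18) and lower at 8 h and from 16 h on (-1.55 ± 0.18 at 28 h), and Cyp2c37 was lower at 5 times (-1.44 ± 0.34 at 16 h). Periportal genes, 26 tested, were called in both directions at each time, with 2 higher and 5 lower at 32 h, beside the same 11.8% and 3.6% of all genes. In the list of glutamine, glutamate, ornithine and ammonium handling, with 24 tested, the glutaminase gene Gls2 was lower at 7 times (-1.69 ± 0.20 at 16 h), as was the urea cycle gene Otc (-1.47 ± 0.17 at 28 h). The mitochondrial glutamate carrier gene Slc25a22 was higher at 7 times (1.95 ± 0.32 at 8 h). Of the endothelial markers, 25 tested, Thbd was called higher at all 8 times (2.56 ± 0.25 at 4 h), while 11 were called lower at 4 h, beside 37.6% of all genes, when the whole list summed to 169 to 199 in PHx livers and 292 to 316 in sham livers. The part of the endothelial markers in the members' falls at 4 h was not tested.

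Across the 16 group means, the genes most like Glul among 5827 genes of at least a moderate level were Tst, Nudt7 and Urad (Pearson r = 0.77, 0.75 and 0.75). Those most like Axin2 were Rbmxl1, Tgfbi and Khsrp (r = 0.92, 0.90 and 0.90), and those most like Lect2 were Xrcc6, Nags and Idh2 (r = 0.93, 0.93 and 0.91). The means share libraries and scaling, and those of Glul carry the 4 low livers, so these values describe likeness of pattern only.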

How the data were processed

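PolyA RNA of 60 mouse livers was sequenced. Per the submitters' processing notes, the tools include fastp 0.20.0 and HISAT2 2.1.0 and the builds mm8 and mm9; no counting tool or annotation is named there or in the file headers (not given in the sources used here). The time course was deposited as log2 values of an unstated unit, taken here as log2(value + 1), on which reading the linear values end at 2 decimals. The 4 h sham table was deposited as TPM values, per the file headers. The 4 h PHx table is headed the same way, but its deposited values are a read number times a constant per gene and were treated as a signal: 100% of them came out whole within 0.01, for 11724 genes. The 24 h tables were deposited as read counts by the authors. A further 6 columns of per-sample values match no sample and were not used.

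Log values were tested with limma 3.58.1 (eBayes with trend, two-sided), counts with edgeR 4.0.16 (quasi-likelihood, TMM), with DESeq2 1.42.0 as an alternative, in R 4.3.3; tables and figures used Python 3.11.15. With limma a gene was tested if 3 or more libraries reached a value of 1, and TPM and signal values were tested as log2(value + 1). For edgeR, counts and recovered reads were filtered by its filterByExpr, and counts went into DESeq2 unfiltered. The error given beside an edgeR fold change is its absolute log2 size divided by the square root of the F statistic. P-values were adjusted by Benjamini-Hochberg over all genes tested. The labels number the livers of a group as separate animals; where nothing else marks them as separate, p-values measure the spread between these samples. Members and lists were chosen with earlier results of these data known. Named besides the members are, per list, up to 3 genes called at the most times, ligand and receptor genes called at 4 or more times, and the 3 genes most like Glul, Axin2 and Lect2. On simulated data with 12957 genes and fold changes of 1 and 2 on the log2 scale, limma at 8 h recovered 77% and 97% of changed genes. For morning against night 24 h after PHx, with 12666 genes, edgeR recovered 59% and 100%. Only genes of higher level were changed, and for edgeR every gene had the same assumed spread. The limma rates do not cover Axin2, Rnf43, Znrf3, Tbx3 and Rhbg, whose medians of 1.02 to 2.83 lay below the level required. Same-numbered PHx and sham livers did not deviate together at every time (r between -0.106 and 0.211), so the numbers were not used as pairs. Alternatives were another scaling, pseudocount, filter or tool, the replicate block, and each library left out.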

Additional observations from a re-analysis of the deposited data

Results flagged for a closer look

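For 5 members the difference between PHx and sham was itself different among the 8 times, by limma's test of the interaction over the 48 libraries with Benjamini-Hochberg adjustment. The adjusted p was 2.1e-05 for Lect2, 3.5e-05 for Znrf3, 0.00025 for Rnf43, 0.019 for Tbx3 and 0.038 for Axin2. Rnf43 and Znrf3 differed by -2.14 and -0.60 at 4 h and by 0.48 and 0.43 at 32 h. Lect2 differed by -1.18 at 8 h and 1.01 at 32 h, Tbx3 by -1.56 at 4 h and 0.17 at 32 h, and Axin2 by -0.76 at 4 h and 1.20 at 32 h. The other library identifiers of the 4 h sham livers touch the first of each pair of values at 4 h, and their part was not tested.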

How the results depend on the processing

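With all libraries, limma called 6 pairs of member and time higher and 7 lower. TMM scaling gave 3 higher, and centring each library on its median also gave 3. Lower calls were lost too: those of Rnf43, Znrf3 and Rhbg at 8 h under both scalings, and that of Znrf3 at 4 h with centring. Without the 4 livers of low Glul, a choice made after seeing the data, 15 were higher and 12 lower, and 7 members in place of 2 changed across time within sham livers. Calls over all genes moved as well: within sham livers 7417 of 12859 genes changed across time, against 6574 of 12957 with all libraries. At 24 h 2157 genes were called, against 1594 with all libraries, and at 20 h 1499, against 2379. In the same setting 2 differences changed sign: Lect2 at 20 h was 0.76, against -0.08 with all libraries, and Glul as the mean of 8 times was 0.18, against -0.27. Their cause is the construction of the setting, which removes PHx livers alone.

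With the replicate number as a block, edgeR called 2 members in place of 4 in PHx against sham 24 h after the morning operation, where Axin2 and Rnf43 lost their calls; in the other comparisons the block gave 7 pairs higher and 7 lower, 4 members for the mean of 8 times, 8 for change within PHx, 2 within sham and 5 for the interaction. No paired analysis was possible for the 4 h sham table because its columns carry no labelled number.

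Leaving out each library in turn gave 4 to 10 pairs higher and 5 to 11 lower, 4 to 5 members for the mean of 8 times, 6 to 9 for change within PHx, 1 to 3 within sham and 3 to 6 for the interaction. At 24 h it gave 1 to 4 members after the morning and 1 to 3 after the night operation, 1 in every case for morning against night sham livers and 0 for morning against night PHx livers and for the difference of responses. Of 6747 member values under an alternative, 6530 kept their side of the threshold (123 of them uncalled with the other sign), 135 lost a call, 80 gained one and 2 reversed. Depth of the time course is unknown, so the counting error of low values, as of Rhbg and Znrf3, could not be given there.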
